A study of Mus musculus with 31 samples.

Results

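Retinas of Ins2Akita mice were compared with retinas of wild-type mice on 17 of the 31 arrays of a study of 2 mouse models of diabetes. The groups were taken from the labels: 9 arrays of genotype Ins2Akita/Ins2 and 8 of genotype Ins2/Ins2. All were of strain C57BL/6J, and whole retina was collected after 3 months of hyperglycaemia in the diabetic groups, per the series' design text. Each array measured total RNA of whole retina on a single-colour Illumina BeadChip with 25697 probes. The other 14 arrays held 6 retinas of mice given streptozotocin (STZ), which destroys beta cells, and 8 of untreated mice. They entered the fit for the estimate of spread and are otherwise given only beside an Ins2Akita value. Neither the age nor the sex of the mice, nor whether arrays came from separate mice, is given in the labels, so that the p-values below weigh the scatter of these samples, technical scatter included, and nothing wider.

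The Ins2Akita allele changes the insulin gene Ins2 so that proinsulin misfolds in the endoplasmic reticulum of pancreatic beta cells, which lose the ability to secrete insulin. Every cell of the mouse carries the allele, but the gene is used mainly in beta cells, so that the retina meets the mutation chiefly as high blood glucose and low insulin. The retina is layered, with rod and cone photoreceptors outermost, then bipolar, horizontal and amacrine neurons, ganglion cells whose axons form the optic nerve, and Muller glia that span all layers. In RNA of whole tissue, fewer cells of a type and less RNA per cell cannot be told apart.

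The arrays held retina by its defining markers. Gnat1, Sag and Rcvrn of photoreceptors, Opn1mw of cones, Pcp2 of bipolar cells, Glul and Rlbp1 of Muller glia, Slc17a6 of ganglion cells and Gad1 of amacrine cells were detected on all 31 arrays. The probe of Ins2 was detected on 2 of 9 Ins2Akita arrays and on 0 of 8 wild-type arrays, too few for a test, so it checks no label. Arrays also held other tissue in uneven amounts. A score over 18 lens crystallin genes (mean deviation from each gene's mean, log2 units) ran from -3.34 to 3.46, with a median of -1.42, on Ins2Akita arrays, and from -3.26 to 3.11, with a median of 0.54, on wild-type arrays. The same score over 15 pigment epithelium and melanocyte genes had medians of -0.16 in Ins2Akita and -0.73 in wild type, within -0.81 to 1.70 and -1.38 to 1.58. Ckm of skeletal muscle was detected on 1 Ins2Akita and 1 wild-type array, at up to 6.86 and 5.99, and the score of 8 muscle genes reached 2.56 and 1.93, with medians of -0.18 and -0.08. Alb of plasma was detected on 1 Ins2Akita and 0 wild-type arrays.

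More probes were detected on Ins2Akita arrays. Their number was 15395 to 16460 (mean 15705 ± 351, SD, n = 9), against 14581 to 15469 (mean 15190 ± 294, SD, n = 8) on wild-type arrays, a difference of 515 (exact permutation test, two-sided, p = 0.000823). The part of this difference in the results was not tested. By the array positions in the labels, all wild-type arrays lay on 1 BeadChip and all Ins2Akita arrays but replicate 9 on another, so that BeadChip and genotype cannot be told apart.

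**Figure D1:**
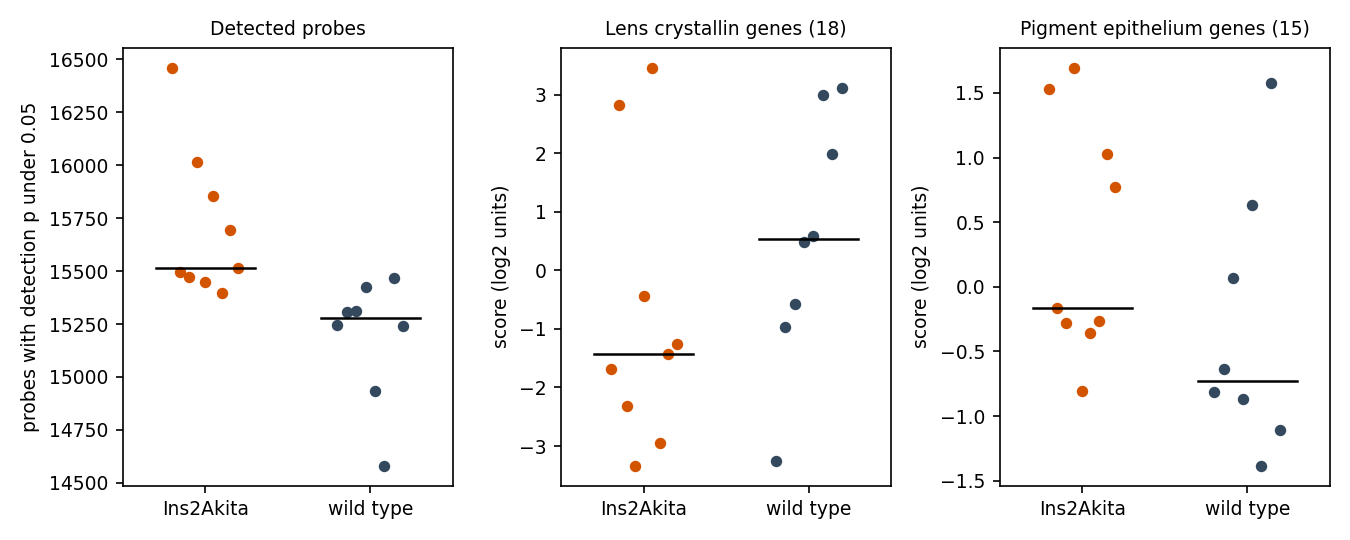
Detected probes and the lens and pigment epithelium scores on each array, with Ins2Akita left of wild type (points, arrays; lines, medians). Ins2Akita arrays lie at 15395 to 16460 detected probes and wild-type arrays at 14581 to 15469, while both scores spread widely within each group.

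The difference between the genotypes was broad and small. Of 16743 probes tested with limma, 696 (4.16%) passed an adjusted p of 0.05 (Benjamini-Hochberg over all probes tested, called below), 295 higher (1.76%) and 401 lower (2.40%) in Ins2Akita. With arrays scaled on their medians instead of quantile-normalized the split was 146 higher and 374 lower, and in series matrix values without normalization between arrays it was 486 and 3403, where the median change of all probes was -0.078. On the brightest probe of each of 11172 genes, 488 (4.37%) were called, 222 higher (1.99%) and 266 lower (2.38%). These shares are the background for every list described below, and they are not matched to the brightness of a list. From the dimmest to the brightest of equal classes of probes, 1.18%, 0.95% and 3.15% were called higher. For calls lower the shares were 1.31%, 2.47% and 3.40%. The rod, cytosolic ribosome and oxidative phosphorylation lists were bright (median log2 levels 13.2, 12.1 and 11.4). The Wnt list was dim (6.03), against 7.64 for all genes tested. The median change of the calls was 1.24-fold, 402 changed by less than 1.25-fold, and 17 by more than 1.5-fold, 8 higher and 9 lower. For 77 probes (0.460%) the groups did not overlap at all, with every Ins2Akita array above every wild-type array for 30 (0.179%) and below for 47 (0.281%), and 74 of the 77 were among the calls. Pairs of Ins2Akita arrays correlated at 0.968 to 0.994, pairs of wild-type arrays at 0.970 to 0.992 and pairs across genotypes at 0.959 to 0.990. Without the 8 arrays whose lens or pigment score was above 1 (4 Ins2Akita and 5 wild-type arrays left, a setting chosen after seeing the data), 1 probe was called, that of Rpl23, and the named changes had a median of 0.930 of their size over all arrays. The named probes were calls on all arrays, these included, so that ratio is no independent check of them. A fit of only the 2 groups called 448 probes, and one that treated BeadChip as a random block called 228. That block cannot part BeadChip from genotype, which nearly coincide here, so its counts are no check on a BeadChip effect.

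**Figure D2:**
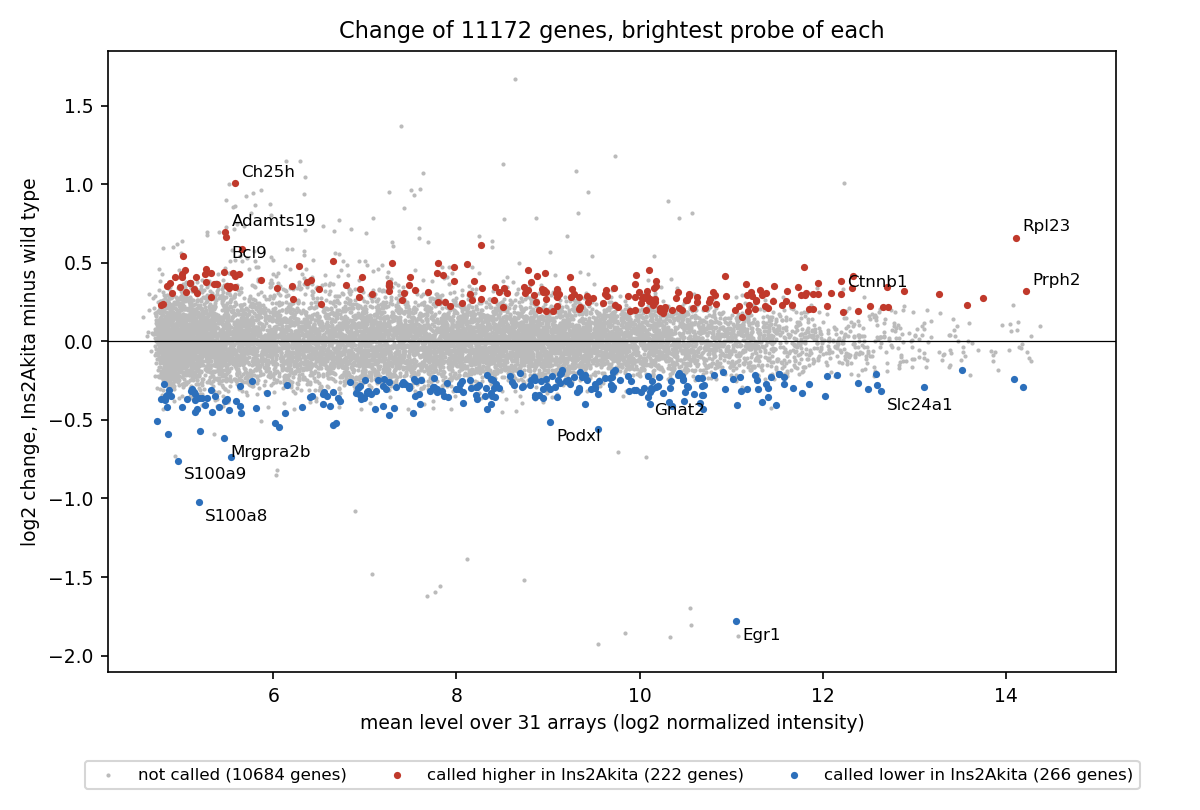
Change of each gene against its mean level (log2 normalized intensity over 31 arrays), for the brightest probe of 11172 genes. The 222 genes called higher (red) and 266 called lower (blue) in Ins2Akita form thin bands on both sides of 0, and few lie beyond 0.5. Large changes in grey did not pass the test.

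Photoreceptor genes were among the falls. Among 18 measured rod genes there were 1 rise, 3 falls and 14 without a call, and the median log2 change was -0.077, or -0.020 without the arrays of high lens or pigment score. Among 12 cone genes 0 rose, 1 fell and 11 did not pass (median -0.17, against -0.18 for untreated minus wild type on the same wild-type arrays), and 2 of 21 visual cycle genes fell (median 0.095, which turned to -0.014 in unnormalized series matrix values). Rpe65, the visual cycle isomerase of the pigment epithelium, had medians of 7.80 in Ins2Akita and 7.10 in wild type, and the part of pigment epithelium in this median was not tested. With median scaling, with only the 2 groups or with the BeadChip as a block, 1 rod gene fell in place of 3. Over all genes the median was 0.00044. Levels are given from here on as the lowest, median and highest log2 normalized intensity of a group. Gnat2, the transducin alpha subunit that couples cone opsin to phosphodiesterase, lay at 9.85, 9.99 and 10.07 in Ins2Akita retinas, against 10.14, 10.36 and 10.53 in wild-type retinas. Every Ins2Akita array was below every wild-type array, and Gnat2 fell by 0.35 (SE 0.0678, adjusted p = 0.00402). Slc24a1, the rod exchanger that removes calcium from the outer segment, lay at 12.18, 12.42 and 12.56 in Ins2Akita and at 12.54, 12.76 and 12.80 in wild type. Of the Ins2Akita arrays 7 of 9 lay below every wild-type array, and the gene fell by 0.32 (SE 0.0618, adjusted p = 0.00443). Pde6b, a catalytic subunit of the rod phosphodiesterase, had 13.98, 14.05 and 14.15 in Ins2Akita against 13.85, 14.46 and 14.50 in wild type, and fell by 0.29 (adjusted p = 0.0196), although wild-type replicate 8 held the lowest level of all. On 4 wild-type arrays Pde6b was at 14.50, the highest level of any named gene on any array and the top of the quantile-normalized scale, where levels follow the rank of the brightest probes. With median scaling it gave -0.09 (adjusted p = 0.61). Prph2, a membrane protein of the rim of outer segment discs, moved the other way. It had 14.21, 14.33 and 14.50 in Ins2Akita and 13.70, 14.07 and 14.21 in wild type and rose by 0.32 (SE 0.0668, adjusted p = 0.00612), with the groups meeting at 14.21. Crx and Nrl, the transcription factors that switch on photoreceptor genes, were not called, with 0.07 (adjusted p = 0.491) and 0.10 (adjusted p = 0.565).

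The visual cycle genes that fell were Rbp3 and Abca4. Rbp3, the retinoid carrier between photoreceptors and pigment epithelium, lay at 13.90, 13.93 and 14.18 in Ins2Akita against 14.03, 14.21 and 14.37 in wild type and fell by 0.24 (adjusted p = 0.0163), but with median scaling gave -0.06 (adjusted p = 0.73). Abca4, the flippase that clears retinaldehyde from disc membranes, fell by 0.27 on its brightest probe (adjusted p = 0.0426), and its other probes gave -0.27 and -0.20 without passing. Nxnl1, which encodes a rod-derived cone viability factor, was lower on 2 of its 4 probes, at 10.90, 11.03 and 11.41 in Ins2Akita against 11.15, 11.37 and 11.44 in wild type on the brighter. The falls were 0.24 and 0.37 (adjusted p = 0.0229 and 0.049), and the probes not called gave -0.26 and -0.09. The dimmer of the called probes was called in 12 of 31 settings. Mpp4, a scaffold of photoreceptor synapses, fell by 0.30 (adjusted p = 0.0141). Among 45 genes of the photoreceptor cilium 2 rose, 0 fell and 43 did not pass (median -0.033). They were Pde6d, a carrier of lipid-modified proteins to the outer segment (0.26, adjusted p = 0.0209), and Bbs5, a subunit of the BBSome cargo complex (0.33, adjusted p = 0.0378).

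The promoters of Gnat2, Rbp3 and Abca4 are shown because these lower genes carry, just before the start of transcription, the letters TAATCC (read GGATTA on the other strand) of the core bound by Crx, the homeobox factor of photoreceptors. The 250 bases before the start are printed from RefSeq (build GRCm38.p6), with these letters, and the ETS letters described further below, in capitals. They begin 19, 69 and 58 bases before the start. Gnat2 is at chr3:108092816-108093065, Rbp3 at chr14:33953753-33954002 and Abca4 at chr3:122044210-122044459, all on the plus strand.
Gnat2: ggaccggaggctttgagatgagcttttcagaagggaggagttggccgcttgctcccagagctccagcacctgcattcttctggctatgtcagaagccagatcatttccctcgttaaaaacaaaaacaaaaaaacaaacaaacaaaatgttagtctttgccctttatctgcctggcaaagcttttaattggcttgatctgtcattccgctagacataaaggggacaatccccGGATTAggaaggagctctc
Rbp3: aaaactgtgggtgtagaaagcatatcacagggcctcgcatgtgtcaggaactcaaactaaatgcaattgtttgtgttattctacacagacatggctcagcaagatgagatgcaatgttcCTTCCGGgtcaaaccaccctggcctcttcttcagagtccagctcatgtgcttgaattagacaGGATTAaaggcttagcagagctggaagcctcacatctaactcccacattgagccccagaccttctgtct
Abca4: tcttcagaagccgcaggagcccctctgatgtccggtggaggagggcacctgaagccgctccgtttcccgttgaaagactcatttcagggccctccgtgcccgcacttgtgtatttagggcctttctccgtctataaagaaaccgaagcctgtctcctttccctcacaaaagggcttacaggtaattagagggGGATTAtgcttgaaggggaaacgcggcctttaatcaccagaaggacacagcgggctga
Of the 9040 tested genes with a promoter window in the table, 7.56% held TAATCC on either strand in any of their windows. So did 11.05% of 181 genes called higher and 8.73% of 229 called lower. Only 13 of the 18 rod genes had a window, under 80%, so that no share is given for them.

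**Figure D3:**
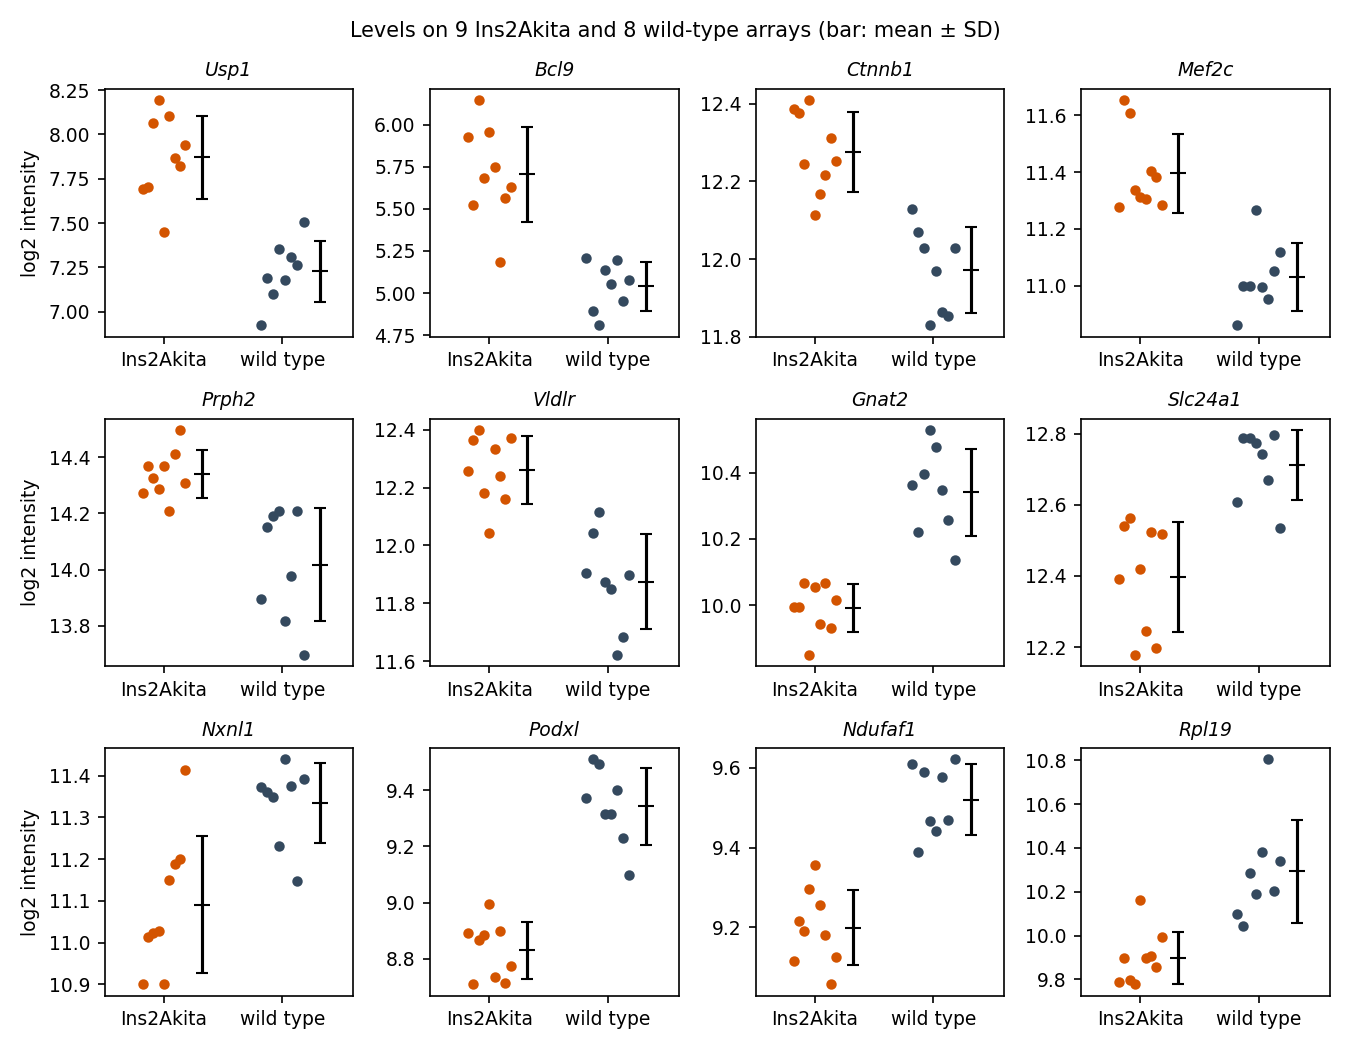
Levels of 12 named genes on each array (points, log2 normalized intensity), Ins2Akita left of wild type, with the mean and SD of each group beside its points. The first 6 genes, Usp1 to Vldlr, were called higher and the last 6, Gnat2 to Rpl19, lower in Ins2Akita. Mef2c, Gnat2, Podxl and Ndufaf1 show no overlap between the groups.

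In the inner retina single genes moved in both directions. Of 11 bipolar cell genes 1 rose, 1 fell and 9 did not pass (median -0.017, which turned to 0.013 in unnormalized series matrix values). Both are rod bipolar markers. Prkca, a protein kinase C, had 7.35, 7.51 and 7.67 in Ins2Akita and 6.999, 7.16 and 7.48 in wild type and rose by 0.31 (adjusted p = 0.0187). Pcp2, a modulator of G proteins, had 11.09, 11.33 and 11.37 in Ins2Akita against 11.23, 11.59 and 11.86 in wild type and fell by 0.27 (adjusted p = 0.0469). This fall was called in 12 of 31 settings. Of 13 ganglion cell genes 1 rose, 1 fell and 11 did not pass (median 0.048). Gap43, a protein of growing axons, rose by 0.34 with 9.76, 9.85 and 9.98 in Ins2Akita and 9.29, 9.49 and 9.93 in wild type (adjusted p = 0.00652), and Uchl1, a neuronal deubiquitinase, fell by 0.23 (adjusted p = 0.0499). None of 14 amacrine and horizontal cell genes was called by limma, 6 had an unadjusted p under 0.05, all 14 lay above 0, and the median was 0.147 (0.115 for untreated minus wild type, on the same wild-type arrays), or 0.160 without the arrays of high lens or pigment score. Detected-probe numbers moved in the same direction as this list.

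Synaptic genes gave 3 rises, 1 fall and 35 not called among 39 (median -0.022). The rises were those of Bin1, which bends membranes in endocytosis (0.29, adjusted p = 0.0297), and Cacnb2, the calcium channel beta subunit of photoreceptor terminals (0.28, adjusted p = 0.0381). Napb, a fusion factor of neurons, was the other, named here after its value was seen (0.19, adjusted p = 0.0399). Sv2b, a glycoprotein of synaptic vesicles, fell by 0.21 (adjusted p = 0.0257). Of 24 voltage-gated channel genes 1 rose, Cacnb2, and 1 fell, the sodium channel subunit gene Scn2b (-0.30, adjusted p = 0.0164). Among 38 potassium channel and pump genes 0 rose and 1 fell. This was Kcne2, a channel subunit found in epithelia such as the ciliary body, at 9.15, 9.34 and 9.71 in Ins2Akita against 9.58, 9.88 and 10.27 in wild type, which fell by 0.56 (SE 0.0878, adjusted p = 0.000752). In the list of 11 ciliary body and iris genes it was the 1 called, while the other 10 lay above 0 (median of the list 0.301). Chrnb1, a nicotinic receptor subunit, was the 1 gene called of 30 in cholinergic, dopaminergic and peptide transmission and rose by 0.42 (adjusted p = 0.0164). None of 21 glutamate and 18 GABA or glycine genes was called by limma, with 3 and 1 at an unadjusted p under 0.05.

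Developmental transcription factors of the retina were called in 1 direction, with 3 of 35 higher and 0 lower (median 0.063), or 1 higher with median scaling. For untreated minus wild type the median was 0.090. Mef2c, a factor used by photoreceptors and other neurons, ran from 11.28 to 11.65 in Ins2Akita and from 10.86 to 11.27 in wild type and rose by 0.36 (SE 0.0735, adjusted p = 0.0053). Every Ins2Akita array lay above every wild-type array, though narrowly, and its other probes gave 0.12 and 0.07 without passing. Satb1, a chromatin organiser, rose by 0.23 (adjusted p = 0.0122). Lhx2, a homeobox factor of Muller glia and the early eye, rose by 0.35 (adjusted p = 0.0223).

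Wnt signalling held the largest share of rises among the lists with 20 or more genes measured, 4 of 38 (10.5%) against 1.99% of all genes, with 0 lower and 34 not called. The count was 3 on the mean of each gene's probes and 4 to 6 under the other planned settings. Its median was 0.090, against 0.069 for untreated minus wild type, with 30 of 38 genes above 0, and turned to -0.049 in the series matrix values without normalization between arrays, where all genes had a median of -0.067. In this pathway secreted Wnt proteins bind Frizzled and Lrp receptors, beta-catenin escapes breakdown, and with Bcl9 proteins it switches on target genes in the nucleus. Lrp5, the co-receptor, is outside the naming rule and completes the count. It had 5.44, 5.63 and 5.82 in Ins2Akita and 4.87, 5.38 and 5.54 in wild type and rose by 0.35 (adjusted p = 0.0139). Ctnnb1, beta-catenin itself, had 12.11, 12.25 and 12.41 in Ins2Akita and 11.83, 11.999 and 12.13 in wild type and rose by 0.30 (SE 0.0571, adjusted p = 0.00355). All but 1 of its Ins2Akita arrays lay above every wild-type array, while its other probe gave 0.05 and was not called. Bcl9, the adaptor that joins beta-catenin to its coactivators, had 5.18, 5.68 and 6.14 in Ins2Akita and 4.81, 5.07 and 5.21 in wild type and rose 1.59-fold (0.67, adjusted p = 0.00394). Its relative Bcl9l rose by 0.45 on 1 probe (adjusted p = 0.0125) and gave 0.04 on the other. The untreated mice, set against the same wild-type arrays, differed from them by 0.28 for Ctnnb1, 0.51 for Bcl9, 0.63 for Bcl9l and 0.48 for Lrp5. In Notch, Hedgehog and TGF-beta signalling 1 of 40 genes rose, the Notch ligand gene Jag2 (0.35, adjusted p = 0.0436), and in MAP kinase and calcium signalling 1 of 39, the phosphatase gene Dusp26 (0.28, adjusted p = 0.0247).

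Extracellular matrix genes gave 3 rises, 0 falls and 46 not called among 49, with 38 above 0 and a median of 0.184, and 0 rises with the BeadChip block. For untreated minus wild type this median was 0.098. The Ins2Akita median was 0.069 without the arrays of high lens or pigment score and -0.016 in unnormalized series matrix values. Adamts19, a secreted metalloprotease, had 5.03, 5.81 and 6.14 in Ins2Akita and 4.63, 4.86 and 5.57 in wild type, where it was detected on 3 of 8 arrays, and rose 1.62-fold (0.70, adjusted p = 0.0164). Col27a1, a fibrillar collagen, had 6.001, 6.58 and 7.02 in Ins2Akita and 5.58, 6.07 and 6.38 in wild type and rose by 0.51 (adjusted p = 0.0172). Col5a1, which starts collagen fibrils, rose by 0.50 (adjusted p = 0.0314). Among 24 junction genes 2 rose and 2 fell. Crb3, a polarity protein, rose by 0.43 (adjusted p = 0.0153). Cldn7, an epithelial claudin, fell by 0.55 (adjusted p = 0.012), as Mpp4 did, and the myelin claudin gene Cldn11, named after its value was seen, gave 0.32 (adjusted p = 0.0466). For the cytoskeleton 2 of 45 microtubule genes rose, Map1b, which is taken up with the genes of opposite probes, and Tubb4b, a beta tubulin of cilia (0.22, adjusted p = 0.011). Of 39 actin cytoskeleton genes Myl12b, a myosin light chain (0.29, adjusted p = 0.0247), and the kinase Pak3 (0.19, adjusted p = 0.0345) rose, and the cofilin kinase Limk2 fell (-0.22, adjusted p = 0.0218).

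Among glial, vascular and blood cell markers calls were few. Of 14 Muller glia genes 1 rose, 0 fell and 13 did not pass. Car14, a membrane carbonic anhydrase, had 10.23, 10.58 and 10.74 in Ins2Akita and 9.83, 9.94 and 10.49 in wild type and rose by 0.46 (adjusted p = 0.00471). None of 10 astrocyte and gliosis genes, 12 microglia genes and 16 endothelial genes was called by limma, with 1, 2 and 3 at an unadjusted p under 0.05. Gfap, the filament gene of reactive glia, lay at 4.68, 5.06 and 5.28 in Ins2Akita and 4.58, 4.84 and 5.33 in wild type and changed by 0.12 (adjusted p = 0.529). In the list of pericytes and smooth muscle 2 of 11 genes fell. Vtn, whose protein vitronectin is also made by liver, fell by 0.30 (adjusted p = 0.0147), and Cspg4, the NG2 proteoglycan, by 0.42 (adjusted p = 0.0209). Cspg4 had 4.87, 5.17 and 5.49 in Ins2Akita against 5.50, 5.58 and 6.01 in wild type, without overlap. Of 7 neutrophil genes measured 3 fell. The calprotectin genes S100a8 and S100a9 had medians of 4.71 and 4.58 in Ins2Akita against 5.73 and 5.13 in wild type, so that both lay near background in Ins2Akita, where S100a8 was detected on 3 arrays and S100a9 on 1, while 8 and 6 wild-type arrays detected them. Mmp9, gelatinase B, had 7.82, 7.95 and 8.01 in Ins2Akita against 8.05, 8.19 and 8.57 in wild type and fell by 0.30 (adjusted p = 0.0229). Every Ins2Akita array lay below every wild-type array for Mmp9, and with the BeadChip block 0 of the 7 genes fell. In the blood and erythrocyte list 0 of 4 genes was called and 4 lay below 0 (median -0.23), and the part of blood in the neutrophil genes was not tested. Of 26 hypoxia and angiogenic genes 2 rose. Vegfa, which drives the growth of blood vessels, had 11.30, 11.47 and 11.69 in Ins2Akita and 10.90, 11.21 and 11.45 in wild type and rose by 0.26 on its brightest probe (adjusted p = 0.0193), while its other probe gave 0.06. Vegfc, the lymphatic growth factor, rose by 0.39 (adjusted p = 0.0163). Untreated minus wild type, on the same wild-type arrays, gave 0.30 for the brightest Vegfa probe, -0.07 for its other probe and 0.20 for Vegfc.

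Cytosolic ribosome genes were called lower more often than genes at large, in number and without a test of the list. Of 56 cytosolic ribosome genes 1 rose and 10 fell (17.9%, against 2.38% of all genes and 3.40% of the brightest class of probes). The remaining 45 were not called, 47 of the 56 lay below 0, and the median was -0.124. This median was -0.045 without the arrays of high lens or pigment score. Untreated minus wild type, which uses the same wild-type arrays and compares mice without diabetes, gave the list a median of -0.142. The count of falls was 4 with only the 2 groups or with the BeadChip block, 6 with median scaling or with lens and pigment scores as covariates, and 4 to 11 without single arrays. Rpl19, of the large subunit, had 9.78, 9.90 and 10.16 in Ins2Akita against 10.04, 10.24 and 10.80 in wild type and fell by 0.40 (SE 0.0813, adjusted p = 0.00595). Rps21, of the small subunit, had 12.92, 13.04 and 13.13 in Ins2Akita against 13.16, 13.31 and 13.53 in wild type, without overlap, and fell by 0.29 (adjusted p = 0.00329). The other 8 falls lay between -0.41 and -0.18. Rpl23 was the exception, at 14.001, 14.31 and 14.41 in Ins2Akita and 13.44, 13.65 and 13.93 in wild type, again without overlap, and rose 1.58-fold on 1 probe (0.66, SE 0.0632, adjusted p = 1.68e-07). Its other 3 probes gave -0.14, -0.27 and -0.05 and were not called. Ribosomal protein genes have many near-identical copies, so values of single members are uncertain. In 39 translation factor genes 0 rose and 2 fell (median -0.035). They were Eif3f, a subunit of an initiation factor, at 12.33, 12.56 and 12.69 in Ins2Akita against 12.74, 12.81 and 12.87 in wild type (-0.28, adjusted p = 0.00376), and Eef1g, of the elongation complex (-0.27, adjusted p = 0.00652). Of 20 genes that charge transfer RNA, 2 fell, for threonine (Tars, -0.35, adjusted p = 0.0285) and histidine (Hars, -0.35, adjusted p = 0.0308). Hars was detected on 1 Ins2Akita and 5 wild-type arrays.

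**Figure D4:**
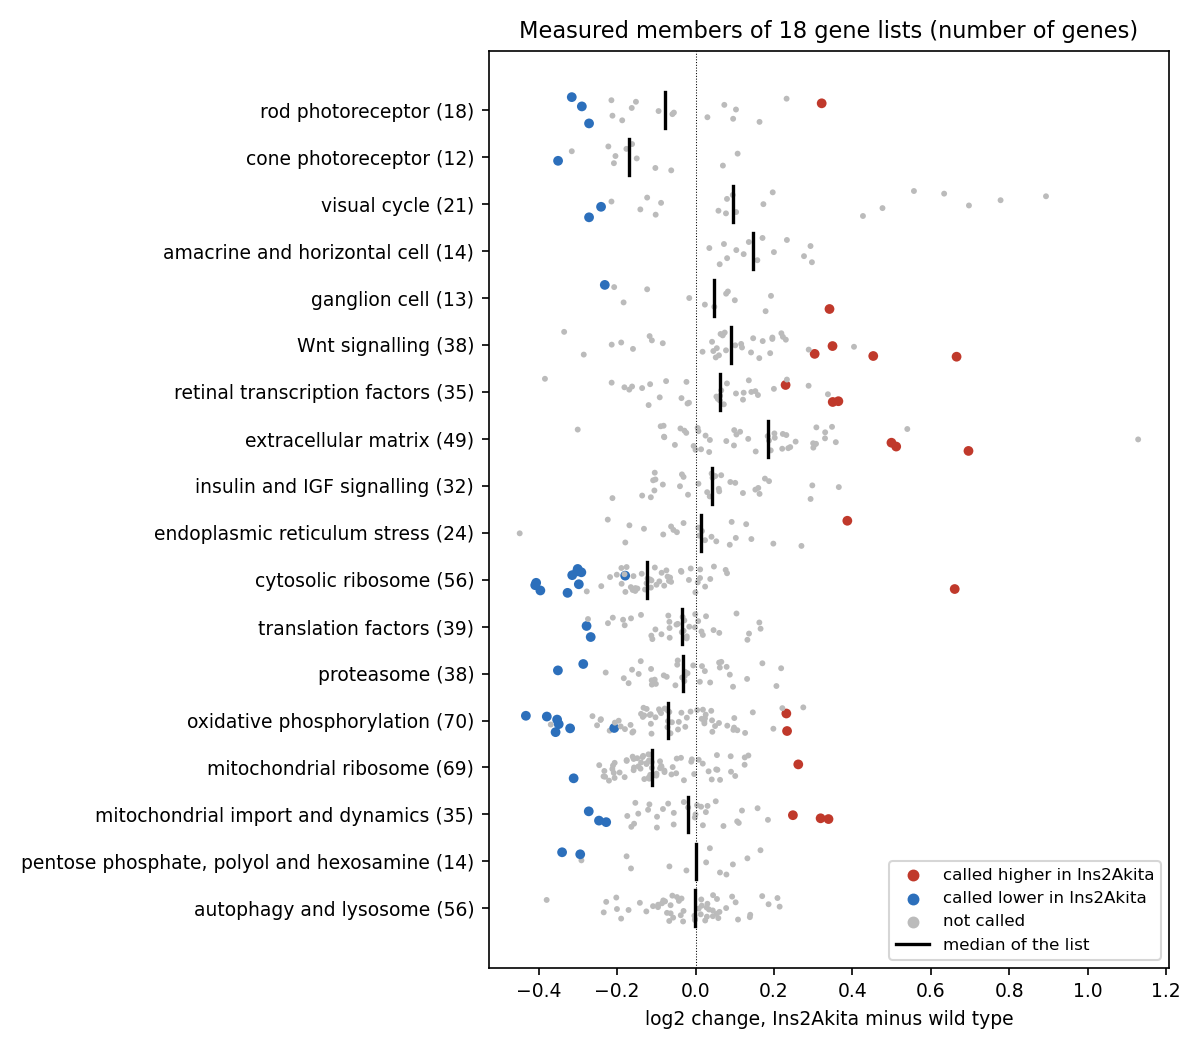
Log2 change of every measured member of 18 gene lists (points, Ins2Akita minus wild type), with the median of each list as a black bar and called members in colour. The cytosolic ribosome list holds 10 genes called lower and 1 higher, the Wnt list 4 higher and 0 lower, and most members of every list lie between -0.4 and 0.4.

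RNA processing and transcription genes moved both ways. Of 53 spliceosome and RNA-binding genes 4 rose, 1 fell and 48 did not pass (median -0.024). Srsf2, a splicing factor of the SR family, had 11.65, 11.79 and 11.92 in Ins2Akita and 11.36, 11.44 and 11.66 in wild type and rose by 0.30 (adjusted p = 0.00471), while its other probes gave -0.19 and 0.08. Hnrnpc rose by 0.22 on its brightest probe and fell by 0.25 on its other probe, and Luc7l2, which helps to choose 5′ splice sites, fell by 0.30 (adjusted p = 0.0158). The other rises, named after their values were seen, were those of Hnrnph1 (0.35) and the cold-induced gene Rbm3 (0.37). A pair of spliceosome genes was lower on 2 probes each. Prpf3, of the U4/U6 particle, fell by 0.27 and 0.34 (adjusted p = 0.00926 and 0.0189), and Eftud2, the GTPase of the U5 particle, fell by 0.28 and 0.30 (adjusted p = 0.00977 and 0.0069). Eftud2 lay at 8.08, 8.27 and 8.41 in Ins2Akita against 8.42, 8.53 and 8.57 in wild type on the first of these probes, without overlap, and its remaining probe, the brightest, gave 0.08. The other 3 probes of Prpf3 gave between -0.21 and 0.10. Among 47 RNA polymerase II and Mediator genes 2 rose and 2 fell (median -0.070), including Gtf2h1 of the TFIIH complex (0.28, adjusted p = 0.00844) and the Mediator genes Med15 (-0.25, adjusted p = 0.0113) and Med31 (-0.37, adjusted p = 0.012). Of 51 chromatin regulators 2 rose, the histone demethylase gene Kdm1a (0.18, adjusted p = 0.0205) and the deacetylase gene Hdac2 (0.19, adjusted p = 0.0285), and 1 fell. This was Dnmt1, the maintenance DNA methyltransferase, at 8.46, 8.64 and 8.72 in Ins2Akita against 8.67, 8.88 and 9.11 in wild type (-0.28, adjusted p = 0.00799).

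Of 70 oxidative phosphorylation genes 2 rose, 7 fell and 61 were not called, and their median was -0.071, or -0.027 without the arrays of high lens or pigment score. For untreated minus wild type, on the same wild-type arrays, this median was -0.115. Ndufb5, of complex I, had 10.27, 10.52 and 10.81 in Ins2Akita against 10.67, 10.93 and 11.33 in wild type and fell by 0.43 (adjusted p = 0.00447). Cox7c, of complex IV, fell by 0.35 (adjusted p = 0.00612). Atp5g3, a gene of the ATP synthase ring, had 13.66, 13.77 and 13.82 in Ins2Akita and 13.43, 13.53 and 13.62 in wild type, without overlap, and rose by 0.23 (adjusted p = 0.0053). Ndufaf1, a chaperone for the building of complex I, had 9.06, 9.19 and 9.36 in Ins2Akita against 9.39, 9.52 and 9.62 in wild type and fell by 0.32 (SE 0.0516, adjusted p = 0.000924), also without overlap. In 35 import and dynamics genes 3 rose and 3 fell (median -0.019). The rises were those of 2 inner membrane carriers and a channel subunit. Slc25a3, the phosphate carrier, had 12.29, 12.43 and 12.72 in Ins2Akita and 12.01, 12.09 and 12.28 in wild type (0.34, adjusted p = 0.00355), while its other probe gave -0.07. Slc25a5, an exchanger of ADP and ATP, rose by 0.32 (adjusted p = 0.0053) and Timm17a, of the import channel, by 0.25 (adjusted p = 0.00997). Timm50, Phb2 and Mfn2 fell by 0.27, 0.25 and 0.23, and are named because they complete the count. Of 69 mitochondrial ribosome genes 1 rose, Mrps10 (0.26, adjusted p = 0.043), and 1 fell, Mrpl15 (-0.31, adjusted p = 0.0426), while 54 lay below 0 and the median was -0.112. Without the arrays of high lens or pigment score that median was -0.012, and for untreated minus wild type it was -0.118.

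Metabolic lists held single calls. Of 14 genes of the pentose phosphate, polyol and hexosamine routes 0 rose and 2 fell, both of the non-oxidative pentose phosphate branch, which returns sugar phosphates to glycolysis. Tkt, transketolase, had 10.38, 10.51 and 10.66 in Ins2Akita against 10.66, 10.82 and 11.31 in wild type and fell by 0.34 (SE 0.0734, adjusted p = 0.00805), without overlap, and its other probes gave -0.14 and -0.20. Taldo1, transaldolase, had 10.06, 10.25 and 10.47 in Ins2Akita against 10.36, 10.55 and 10.67 in wild type and fell by 0.29 (adjusted p = 0.0147). Slc16a3, a lactate exporter called in 14 and 20 of 31 settings on its probes, was the 1 gene called of 21 in glycolysis and fell on both of its probes, by 0.36 and 0.34 (adjusted p = 0.041 and 0.0323). Suclg1 of the citrate cycle rose by 0.21 (1 of 24, adjusted p = 0.034) and Acsl6, which activates fatty acids such as docosahexaenoic acid, by 0.21 (1 of 22 in fatty acid synthesis, adjusted p = 0.0339). Ch25h, which makes 25-hydroxycholesterol, was the 1 called of 27 sterol genes. It had 4.49, 5.93 and 6.79 in Ins2Akita and 4.45, 4.74 and 5.99 in wild type, detected on 8 of 9 and 3 of 8 arrays, and rose 2.01-fold (1.01, adjusted p = 0.0347). Slco4a1, an organic anion carrier, rose by 0.35 (1 of 26 solute carriers, adjusted p = 0.00402). Selenbp1, a selenium-binding protein, had 8.09, 8.89 and 9.28 in Ins2Akita and 7.63, 8.18 and 8.57 in wild type and rose 1.53-fold (0.62, adjusted p = 0.0163).

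Protein quality and stress genes gave few calls. Of 38 proteasome genes 0 rose and 2 fell. Both, Psmd8 and Psmd11, encode parts of the regulatory particle, and they fell by 0.29 and 0.35 (adjusted p = 0.0125 and 0.0132). Of 38 heat shock and chaperonin genes 2 fell, Cct3 (-0.23, adjusted p = 0.0187) and Hsph1 (-0.23, adjusted p = 0.0493). In the endoplasmic reticulum stress list 1 of 24 genes rose, 0 fell and the median was 0.013, which turned to -0.0089 with median scaling and to -0.015 in unnormalized series matrix values. The member was Vldlr, a lipoprotein and Reelin receptor listed there as a target of the unfolded protein response, with 12.04, 12.26 and 12.40 in Ins2Akita and 11.62, 11.89 and 12.11 in wild type (0.39, SE 0.0727, adjusted p = 0.00355). Of 48 antioxidant genes Mt3, the neuronal metallothionein, rose (0.34, adjusted p = 0.0444) and Gpx4, which reduces lipid peroxides, fell (-0.27, adjusted p = 0.0297). Single genes were called in ubiquitin conjugation (Cul3, 0.30, of 33), apoptosis (the survival gene Bcl2l1, 0.27, of 26), the cell cycle (Ccnd3, 0.25, of 29), DNA repair (Xrcc6, 0.27, of 34) and the circadian clock (Tef, -0.23, of 20). Of 29 immediate early genes 1 fell. Egr1 spread over 9.20, 10.38 and 11.72 in Ins2Akita and 10.56, 12.21 and 14.001 in wild type and fell by 1.78 (SE 0.451, adjusted p = 0.0202), and it differed between untreated and wild-type mice by -1.68, against the same wild-type arrays.

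Many lists tied to diabetes held no call. With limma 0 of 32 insulin and IGF signalling genes, 23 fatty acid oxidation genes, 26 amino acid genes, 56 autophagy and lysosome genes, 17 glucocorticoid-induced genes, 24 interferon-stimulated genes, 22 complement and antigen presentation genes, 19 cytokine genes and 22 neurotrophin genes passed. At an unadjusted p under 0.05 they held 3, 3, 5, 9, 3, 5, 2, 3 and 4, against 20.3% of all genes. Their medians lay between -0.039 and 0.130. Those of the insulin, fatty acid oxidation, interferon, complement and neurotrophin lists were above 0 and turned to -0.015, -0.021, -0.049, -0.0060 and -0.049 in unnormalized series matrix values. Txnip, a gene induced by glucose, had 6.53, 6.91 and 7.61 in Ins2Akita and 6.55, 6.78 and 7.504 in wild type and changed by 0.17 (adjusted p = 0.583). In the lens crystallin list 0 of 18 genes was called, with 17 below 0 (median -1.54), and in the pigment epithelium list 0 of 15, with all above 0 (median 0.778).

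Calls on more than 1 probe of a gene were rare. Of 3117 genes with 2 or more probes tested, 280 had any call, and 265 of these had exactly 1 probe called, with all other probes of the same sign for 132. Usp1, a deubiquitinase of DNA repair, was higher on 2 of 3 probes. On the first it had 7.45, 7.87 and 8.19 in Ins2Akita and 6.92, 7.23 and 7.504 in wild type and rose 1.56-fold (0.64, SE 0.1, adjusted p = 0.000752), on the second it rose by 0.49 (adjusted p = 0.00174), and the brightest probe gave -0.02. Ptp4a2, a membrane-bound phosphatase, rose by 0.22 and 0.35 on 2 of 4 probes. Csrp3, a muscle LIM protein, fell by 0.53 and 0.46 on 2 of 3 probes (adjusted p = 0.0122 and 0.0285). Of 8 skeletal muscle genes 0 were called, and at an unadjusted p under 0.05 there were 0 as well. Fuom, a fucose mutarotase, fell on both its probes, by 0.41 and 0.24, and lay at 7.86, 8.01 and 8.08 in Ins2Akita against 8.14, 8.20 and 8.46 in wild type on the brighter, without overlap. The actin acetylase gene Naa80 and the ubiquitin ligase gene Rnf167 also fell on 2 probes each, by 0.34 and 0.26 and by 0.25 and 0.32. The remaining probes of Rnf167, the brightest first, gave -0.03, -0.03 and 0.09 and were not called. For many genes named in the lists a second probe did not follow. Probes of opposite sign, none of them called, included 0.17 for Gpx4, 0.14 for Luc7l2, -0.14 for Cacnb2, -0.15 for Suclg1, -0.05 for Slco4a1 and -0.11 and -0.21 for Ccnd3. Likewise uncalled were 0.12 and 0.01 for Med15, -0.10 and -0.00095 for Myl12b, -0.08 for Xrcc6, -0.06 for Mrps10 and 0.01 for Limk2. The 3 other probes of Pde6d gave between -0.06 and -0.01, and those of Bin1 -0.04 and 0.02.

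Further genes had the smallest p-values or the widest gaps. Minar2 had 10.95, 11.12 and 11.21 in Ins2Akita and 10.55, 10.69 and 10.84 in wild type and rose by 0.41 (SE 0.0545, adjusted p = 0.000112). Cntnap2, a neurexin relative of the axon membrane, had 10.20, 10.33 and 10.48 in Ins2Akita and 9.84, 10.01 and 10.12 in wild type and rose by 0.34 (adjusted p = 0.00285), and Scamp4, a secretory carrier membrane protein, rose by 0.28 (adjusted p = 0.00192). For these 3 genes every Ins2Akita array was above every wild-type array. The ubiquitin ligase gene Rnf11 rose by 0.37 (adjusted p = 0.000743), the tetraspanin gene Tspan14 by 0.49 (adjusted p = 0.00168) and the RNA helicase gene Ddx50 by 0.42 (adjusted p = 0.00126). Of these, Rnf11 and Ddx50 each had other probes that gave between -0.18 and -0.01. Podxl, a sialomucin that lines vessel lumens and other apical membranes, had 8.71, 8.87 and 8.996 in Ins2Akita against 9.10, 9.34 and 9.51 in wild type, without overlap, and fell by 0.51 (SE 0.0758, adjusted p = 0.000579). Clip1, which binds the growing ends of microtubules, had 9.91, 10.13 and 10.20 in Ins2Akita against 10.30, 10.48 and 10.67 in wild type and fell by 0.38 (adjusted p = 0.00126), without overlap, while its other probes gave 0.02 and 0.04. Rin3, an exchange factor of the endocytic Rab5, fell by 0.53 (adjusted p = 0.000716), the histone gene H2bc6 by 0.47 (adjusted p = 0.00125) and the collagenase gene Mmp1a by 0.64 (adjusted p = 0.000924). Ccnc, the cyclin of the Mediator kinase, fell by 0.64 on 1 of its 2 probes. The kinase gene Map3k20, the cohesion factor gene Chtf8 and the transition zone gene Tctn2 of the cilium fell by 0.60, 0.35 and 0.29, each without overlap on 1 of 5, 4 and 2 probes. The dim genes Zpld2 and Mrgpra2b fell by 0.57 and 0.62, the second being 1 of a family with near-identical copies.

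In 3 genes probes were called in opposite directions, so that the sign depends on the probe. Map1b, a microtubule protein of axons, had 4 probes. The brightest lay at 11.79, 12.01 and 12.20 in Ins2Akita and 11.19, 11.55 and 11.74 in wild type, without overlap, and rose by 0.47 (adjusted p = 0.00125), while another fell by 0.33 and the rest gave -0.34 and -0.12. Chd1l, a chromatin remodeller, rose by 0.61 on 1 probe and fell by 0.43 on the brighter one (adjusted p = 0.00489 and 0.0145). Hnrnpc is described above. Probe sequences were not used here, so neither the transcripts that each probe reads nor variants beneath them were checked.

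Around Ins2 itself expression differed little. A mutation kept by crossing carries its flanks with it, so the 25 protein-coding genes on each side of Ins2 in the RefSeq gene order (GRCm38.p6) were read as a group. Of these 50 genes 24 were measured, 1 was higher, 0 were lower, and the median change was 0.016, within -0.26 to 0.30. The gene called was Cd81, a tetraspanin, with 12.41, 12.58 and 12.75 in Ins2Akita and 12.20, 12.37 and 12.56 in wild type (0.23, adjusted p = 0.0341).

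The genes called higher were longer, and those called lower shorter, than tested genes at large. The median gene span (GRCm38.p6) was 29.2 kb for the 222 genes called higher, with quartiles of 12.97 and 77.8 kb, and 14.3 kb for the 266 called lower, with quartiles of 5.11 and 30.4 kb, against 21.97 kb for 11169 genes tested. Both sets were brighter than tested genes at large, with median levels of 9.34 and 8.61 against 7.64. Ribosomal and respiratory genes are short, with medians of 3.31 and 7.08 kb. Promoters differed in the ETS letters CCGGAAG (read CTTCCGG on the other strand), the core bound by factors such as Gabpa that are common before housekeeping genes. The 2 readings overlap each other in CCGG. Of 229 genes called lower that had a promoter window, 26.2% held these letters, as did 10.5% of 181 called higher, against 17.95% of 9040 tested. For 48 ribosomal genes the share was 39.6%. The GC box GGGCGG was held by 67.4%, 58.1% and 65.9% of called higher, called lower and tested genes, the E-box CACGTG by 10.5%, 12.7% and 11.5%, and the TATA letters TATAAA by 10.5%, 12.7% and 10.1%. Over all 32851 windows of 300 bases in the table, each counted singly, the ETS letters were in 8.86% and TAATCC in 7.06%. The shares of genes count a gene when any of its windows holds the letters, so they are not on the same footing. These are descriptions of letters, not of binding.

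**Figure D5:**
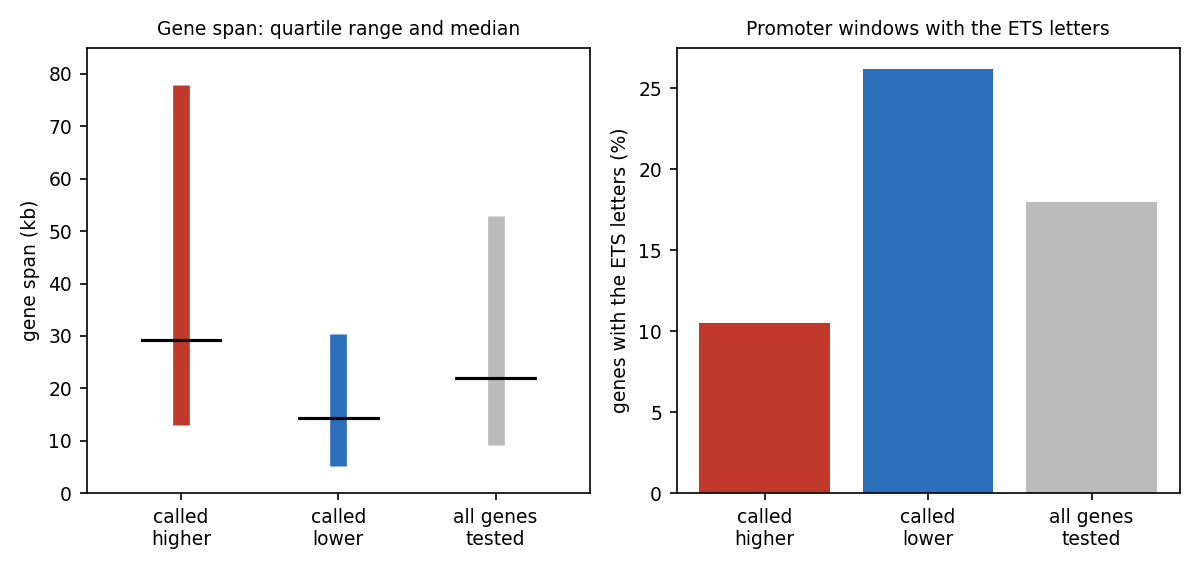
Left, gene span in kb (coloured bar, quartile range; black line, median) and right, share of genes whose promoter window holds the ETS letters, for genes called higher, called lower and all genes tested. Spans are longest in genes called higher (median 29.2 kb) and the ETS letters most frequent in genes called lower (26.2%).

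As examples of the ETS letters, and picked because they hold them, the 250 bases before the start are shown for 3 genes called lower, Rpl19 of the ribosome (chr11:98026460-98026709, plus strand, the first of 2 windows listed), Ndufaf1 of complex I assembly (chr2:119662835-119663084, minus strand) and Psmd11 of the proteasome (chr11:80428365-80428614, plus strand). Capitals mark the ETS letters, which begin 39, 18 and 11 bases before the start, and in Psmd11 also the TAATCC letters 177 bases before it.
Rpl19: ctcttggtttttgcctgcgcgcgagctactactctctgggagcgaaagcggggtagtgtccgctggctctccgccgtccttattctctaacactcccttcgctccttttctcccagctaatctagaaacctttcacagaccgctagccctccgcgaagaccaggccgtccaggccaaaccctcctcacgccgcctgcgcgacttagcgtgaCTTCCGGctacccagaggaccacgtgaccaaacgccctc
Ndufaf1: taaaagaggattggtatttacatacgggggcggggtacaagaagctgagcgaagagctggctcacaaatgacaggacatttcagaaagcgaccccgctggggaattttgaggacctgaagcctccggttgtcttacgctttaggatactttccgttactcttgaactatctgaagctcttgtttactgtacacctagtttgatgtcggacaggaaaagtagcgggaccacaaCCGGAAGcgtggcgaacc
Psmd11: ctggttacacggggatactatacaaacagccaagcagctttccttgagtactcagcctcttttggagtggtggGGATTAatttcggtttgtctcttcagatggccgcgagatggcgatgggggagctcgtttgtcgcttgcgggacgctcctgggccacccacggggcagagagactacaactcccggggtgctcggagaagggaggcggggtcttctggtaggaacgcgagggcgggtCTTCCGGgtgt

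The Ins2Akita change was also set beside the STZ change, which used other arrays (6 STZ and 8 untreated). All untreated arrays lay on a BeadChip of their own, and all STZ arrays on a further BeadChip, together with Ins2Akita replicate 9. BeadChip and group therefore cannot be told apart in any comparison with untreated or STZ retinas given here. The genes set side by side were chosen after their values were seen. For Ch25h the STZ change was 1.10, for Adamts19 0.63, for Selenbp1 0.57, for Chrnb1 0.73 and for the first Csrp3 probe -0.50, against 1.01, 0.70, 0.62, 0.42 and -0.53 in Ins2Akita. None of these differences between the changes passed (adjusted p of 0.601 to 0.988). For Gnat2 it was -0.16, for Slc24a1 -0.04, for Ctnnb1 0.07 and for Rpl19 -0.12, and these differences did not pass either (adjusted p of 0.324 to 0.639). The difference of the changes passed for 3 of 16743 probes (0.0179%). These were Rpl23 (difference 0.70, adjusted p = 0.00044), the brightest probe of Map1b (0.68, adjusted p = 0.0151) and the gene model Gm5347 (-0.89, adjusted p = 0.024), which lies outside the naming rule and was chosen after its value was seen. Between STZ and untreated retinas 6 probes (0.0358%) were called, and between untreated and wild-type retinas, both without diabetes, 3723 (22.2%). That last comparison and the Ins2Akita one use the same wild-type arrays. Untreated minus wild-type differences for the genes above were -0.25 for Gnat2, 0.03 for Slc24a1, 0.27 for Prph2, 0.65 for Rpl23, -0.10 for Rpl19, -0.24 for Ndufaf1, -0.30 for Podxl and 0.05 and -0.11 for the Usp1 probes. For the brightest probe of Map1b and for Gm5347 they were 0.37 and -0.58.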

How the data were processed

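RNA of whole retina from 17 samples (9 Ins2Akita, 8 wild type) was measured on Illumina BeadChips together with 14 STZ and untreated samples. Per the labels' protocols total RNA was extracted with Trizol and RNeasy, DNase-treated, and labelled as biotinylated cRNA. The authors deposited probe intensities from BeadStudio (version not given in the sources used here). From the values, the deposited intensities have the same mean on all arrays (351.836, lowest value -22.7772), so they had been scaled linearly and can fall below 0. Each intensity has a detection p-value deposited by the authors. The authors' series matrix holds the same arrays on a linear scale with a mean of 403.64 and was used as an alternative.

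Here background was corrected with limma's neqc (normexp, with the negative controls inferred from the detection p-values), 16 was added, arrays were quantile-normalized and log2 was taken. Probes with a detection p-value under 0.05 on at least 6 arrays were kept. Signed values are log2 differences, Ins2Akita minus wild type. All 31 arrays were fitted with limma 3.58.1 in R 4.3.3 (lmFit and eBayes, 4 groups, no covariate), with Benjamini-Hochberg adjustment over all kept probes. Every adjusted p comes from this fit, which was tested on simulated data, except where another setting is named beside it. The 69 gene lists and the genes to name were chosen with earlier results of these data known. Probes were named from the platform annotation, which gave 1 symbol for 23978 probes, several for 0 and none for 1719. A gene is represented by its brightest probe. Clones and gene models aside, the named genes are, per direction, up to 8 with calls on 2 or more probes and none opposite, the 8 smallest p-values, the 6 largest changes among the calls and the 5 widest gaps between groups that do not overlap. To these come up to 3 called members of each list with 2 or more, the called member of other lists described, and the called neighbours of Ins2. The number of arrays limits the precision.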

Additional observations from a re-analysis of the deposited data

Results flagged for a closer look

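Single arrays stood apart from their group for 20 of 256 combinations of a named probe and a group, where chance gives about 1 in 20. A level is flagged when its gap to the nearest array of the group is large against the range of the group (Dixon's test). Among photoreceptor genes Pde6b was lowest in wild-type replicate 8 at 13.85 (next 14.24), Rbp3 was highest in Ins2Akita replicate 9 at 14.18 (next 14.03) and Abca4 was highest in wild-type replicate 5 at 12.33 (next 11.88). Among low values in Ins2Akita arrays, Ch25h was at 4.49 in replicate 2 (next 5.64), Eftud2 at 7.65 in replicate 6 (next 7.85), Pak3 at 10.23 in replicate 4 (next 10.38) and Uchl1 at 9.35 in replicate 9 (next 9.54). Wild-type replicate 7 held 5 of the flags, with Tkt at 11.31 (next 10.88) and Tspan14 at 8.18 (next 7.90) above the group, and Prpf3 at 6.04 (next 6.40), Naa80 at 5.69 (next 6.05) and H2bc6 at 7.23 (next 7.50) below it. The rest were high values in wild-type arrays. Chtf8 was at 8.82 and Tctn2 at 8.62 in replicate 5 (next 8.49 and 8.40), Cspg4 at 6.01 and Hars at 5.36 in replicate 1 (next 5.72 and 5.13), Ptp4a2 at 12.87 and Pak3 at 10.46 in replicate 4 (next 12.66 and 10.26), Suclg1 at 11.99 in replicate 8 (next 11.81) and Rpl19 at 10.80 in replicate 6 (next 10.38).

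The Ins2Akita change differed from the STZ change, by the test of the difference itself in limma, for Rpl23 (difference 0.70, adjusted p = 0.00044) and for the brightest probe of Map1b (0.68, adjusted p = 0.0151). The Ins2Akita changes were 0.66 and 0.47. Untreated minus wild type, both without diabetes, gave 0.65 and 0.37 on the same wild-type arrays. The part of the wild-type arrays in these differences was not tested.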

How the results depend on the processing

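All named probes kept their direction under every setting tried. They were calls of the main fit and the settings reuse its arrays, so this is no independent check of direction. Of the 696 calls 208 (76 higher, 132 lower) were called under all 29 alternatives planned, among them 58 of the 118 named genes. With the BeadChip block left aside, 283 calls were kept under all the others. With median scaling 146 probes were higher and 47 did not overlap. A fit of only Ins2Akita and wild type called 448 (189 higher, 259 lower), and BeadChip as a random block 228 (94 and 134). The block cannot remove a difference between BeadChips, since these nearly coincide with the genotypes. Series matrix values without normalization between arrays, added after seeing the data, called 3889 (486 and 3403), with 170 that did not overlap. Without the 8 arrays of high lens or pigment score, also added, 1 was called (1 higher, 0 lower) with 9 arrays left in the comparison, and 578 did not overlap. Leaving out 1 array at a time called 470 (without wild-type replicate 6) to 781 (without Ins2Akita replicate 9), of them 196 to 333 higher and 274 to 448 lower, with 82 to 125 that did not overlap. The difference in detected probes ranged from 421 to 555 in these fits. The difference of the changes passed for 7 probes with series matrix values, 6 with an offset of 50, 6 with no filter, 1 with the BeadChip block, 5 with lens and pigment scores as covariates, 11 with array weights, 7 with trended and robust eBayes, 19 without normalization, 0 without the high-score arrays, and 2 (without wild-type replicate 3) to 9 (without wild-type replicate 4) when single arrays were left out. The causes were not tested. The remaining settings (series matrix values, other filters and offset, covariates, weights, trended eBayes) called 530 to 831. A replicate block called 848. Replicate 9 of Ins2Akita aside, the replicate numbers of both genotypes follow the array positions on the BeadChips, so this is also a block of position. Same-numbered arrays deviated together at -0.256 to 0.331 with 3 of 8 above 0.1. Whether the numbers pair anything beyond position is not given in the labels and was not tested. Of 1856 list counts under alternatives 1400 stayed within 1.5 times. Several named calls held in few of 31 settings, among them Mt3 (11), Pcp2 and Mrps10 (12 each), and Mrpl15, Hsph1 and Jag2 (13 each). Probes near background carry only coarse changes.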

Other observations

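Families and genes chosen after their values were seen are given here as values. Of 46 core histone genes measured 0 were called higher and 5 lower, against 1.99% higher and 2.38% lower of all genes. Of the 46, 35 lay below 0 and the median log2 change was -0.15. The 5 include 4 H2b genes, led by H2bc6 (-0.47), and histone genes have near-identical copies that 1 probe may not separate. In all 12 H2b genes were measured, of which H2bu1-ps and H2bu2 are outside the 46. H2bc12, H2bc14 and H2bc15 fell by 0.30, 0.29 and 0.29, and untreated minus wild type, on the same wild-type arrays, gave -0.38, -0.47 and -0.33. For H2bc6 and H2ac21 (-0.40) it gave -0.21 and -0.14. Of 5 complex I assembly genes 2 fell, Ndufaf1 and Ndufaf3 (-0.31, adjusted p = 0.00926). Micos13, of the inner membrane contact sites (-0.35, adjusted p = 0.00368), and Timm29, of the carrier import complex (-0.34, adjusted p = 0.00551), fell as well. Of 14 cleavage and polyadenylation genes 0 rose and 2 fell, the nuclease subunit gene Cpsf3 (-0.41, adjusted p = 0.0187) and its partner Cpsf2. Cpsf2 lay at 6.15, 6.30 and 6.75 (lowest, median and highest) in Ins2Akita against 6.69, 6.86 and 7.17 in wild type (-0.52, adjusted p = 0.00174). Among 12 Integrator genes 2 rose and 2 fell, larger shares than the background of 1.99% higher and 2.38% lower, in a small family. Among 243 zinc finger genes 4 rose and 3 fell, not above that background.

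Further genes of photoreceptors fell on 1 probe. Rd3, which restrains guanylate cyclase on its way to the outer segment, gave -0.31 (adjusted p = 0.0269), and Lrit1, a membrane protein of photoreceptor synapses, gave -0.23 (adjusted p = 0.0186). Tulp1, needed for protein transport to the outer segment, gave -0.36 on 1 probe (adjusted p = 0.00612) and -0.14 and -0.09 on its others, against -0.31, -0.21 and 0.00242 for untreated minus wild type. Outside the Wnt list Ctnnbip1, an inhibitor of beta-catenin, rose by 0.28 (adjusted p = 0.00612), and the corepressor gene Tle4 rose by 0.29 on 1 of 3 probes (adjusted p = 0.0169), as much as untreated differed from wild type (0.29). Nfat5, a factor of the response to osmotic stress, lay at 10.64, 10.73 and 11.04 in Ins2Akita and 10.20, 10.49 and 10.67 in wild type and rose by 0.31 (adjusted p = 0.00556), while its other probe gave 0.21 (adjusted p = 0.221). Untreated retinas, without diabetes, exceeded the same wild-type arrays by 0.49 and 0.35 on these probes. The amino acid carrier gene Slc38a2 rose by 0.43 and the aldehyde reductase gene Akr1a1 by 0.31, each on 1 of 3 probes (adjusted p = 0.00612 for both), against 0.26 and 0.04 for untreated minus wild type. Prkag2, a subunit of the energy sensor AMPK, rose by 0.34 (adjusted p = 0.00489), against 0.39 for untreated minus wild type, and Ppargc1b, a coactivator of mitochondrial genes, by 0.29 (adjusted p = 0.00997).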
